A study of Mus musculus with 6 samples.

Results

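The genes described here encode the factors that start protein synthesis: the eukaryotic translation initiation factors eIF1 to eIF6, their subunits and paralogues, and the small proteins that block the cap-binding factor. They were taken from the gene list by name, as every symbol beginning with Eif1, Eif2, Eif3, Eif4, Eif5 or Eif6, without the kinases of the eIF2 alpha subunit, the eIF4E transporter Eif4enif1 and annotated pseudogenes. This gave 50 genes of 24369, and the rule used names alone. RNA was sequenced from mouse oocytes at the germinal vesicle stage, which are fully grown and still arrested before meiosis resumes. There were 3 groups of 2 libraries: control oocytes, oocytes exposed to the azo dye Sudan I, and oocytes exposed to Sudan I with melatonin given as a rescue. The sources used here do not give strain, age, dose, route or duration. They do not say whether libraries of a group stem from separate animals, so p-values measure the spread between libraries, which may be technical.

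Initiation begins when eIF2 brings the initiator methionine tRNA to the small ribosomal subunit, together with eIF1, eIF1A, eIF3 and eIF5. The eIF4F complex, made of the cap-binding protein eIF4E, the scaffold eIF4G and the helicase eIF4A, then places that subunit on an mRNA, and eIF5B joins the large subunit at the start codon. The oocyte stops transcription as it completes growth, so that the later steps of meiosis and the earliest divisions draw on stored mRNAs whose translation is switched on and off at the cap and the poly(A) tail.

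Libraries held 20669373 to 26065453 counts. Transcripts of initiation factors held 0.847% ± 0.0210 of them (SD, n = 6), from 170120 to 219828 counts per library. Oocyte markers matched the labelled cell: all 10 were present and summed to 25258 to 27696 counts per 1000000 (CPM) per library. The 13 cumulus and granulosa markers summed to 640.1 and 685 CPM in control, 660.1 and 661 in Sudan I and 667 and 707 in the melatonin libraries, most of it from Serpine2, Nr5a2, Esr2 and Gata4. Single granulosa genes were highest in melatonin library 2: Inha at 92.9 CPM against 21.1 to 56.7 in the other libraries, Fst at 15.8 against 3.61 to 10.1, Inhba at 4.61 against 0.406 to 3.27, Cyp19a1 at 19.3 against 11.7 to 16.2 and Fshr at 3.88 against 1.63 to 2.82. Amh was also highest there, at 21.7 against 5.24 to 21.2. Kitl was lowest there, at 6.33 against 10.0 to 11.7, and so was Nr5a2, at 110.03 against 110.2 to 131.8. Serpine2, Esr2, Gata4, Wt1 and Foxl2 were neither highest nor lowest there. The 4 endothelial markers summed to 103 to 131 CPM, mostly Pecam1, and the 7 of theca and stroma to 2.42 to 4.73 CPM. The 6 of blood and immune cells summed to 0.837 to 1.50 CPM, with Cd52, Hbb-bs and Hba-a1 at 0 in every library. The oocyte sums of the 3 groups overlapped, whereas the granulosa sums of the melatonin libraries were both above those of Sudan I; the part of other cells in the values below was not tested. In these bulk libraries a change in the number of cells and a change in RNA per cell cannot be told apart.

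Of the 50 genes, 47 passed the filter on low counts and 3 had 0 counts in all 6 libraries. Eif2s3y, the Y-linked copy of the eIF2 gamma subunit, was among the latter, and the limit that 0 counts allows, taken as 3 counts per library, was 0.115 to 0.145 CPM. The other two were Eif3j1 and Eif3j2, paralogues for the eIF3j subunit, whose transcripts were 99.4% identical over the whole annotated length of Eif3j2. Reads from such a pair may be left unassigned by a counter, so their 0 is uncertain. In all, 16 of the 50 had a near-identical annotated copy elsewhere, defined as at least 95% identity over at least 200 bases, and 18 shared at least 50 exonic bases with another gene. The sources used here do not say whether the counting used strand.

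Levels were first compared between genes, per kilobase of annotated exon and scaled to a sum of 1000000 per library, in the 6 libraries together. The highest belonged to Eif4e1b, the paralogue of eIF4E found in oocytes and known in frog oocytes as a partner of the eIF4E transporter and CPEB in complexes that hold stored mRNAs silent. Its length-scaled level was 2475 and 2627 in control libraries 1 and 2, 2382 and 2399 in the Sudan I libraries, and 2388 and 2634 in the melatonin libraries. The mean was 2484 ± 118 (SD, n = 6), and no library of any other initiation factor reached it. Within a library it stood 3.92 ± 0.566 times above Eif4e3, the next factor by mean level. In melatonin library 2 Eif1b, at 653.8, exceeded Eif4e3, at 545.0, so the ratio there is not to the next factor. Eif4e1b held 26.7% ± 0.979 of the summed length-scaled level of all 47. By CPM, without length scaling, it ranked 42 among the 14124 tested genes.

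**Figure D1:**
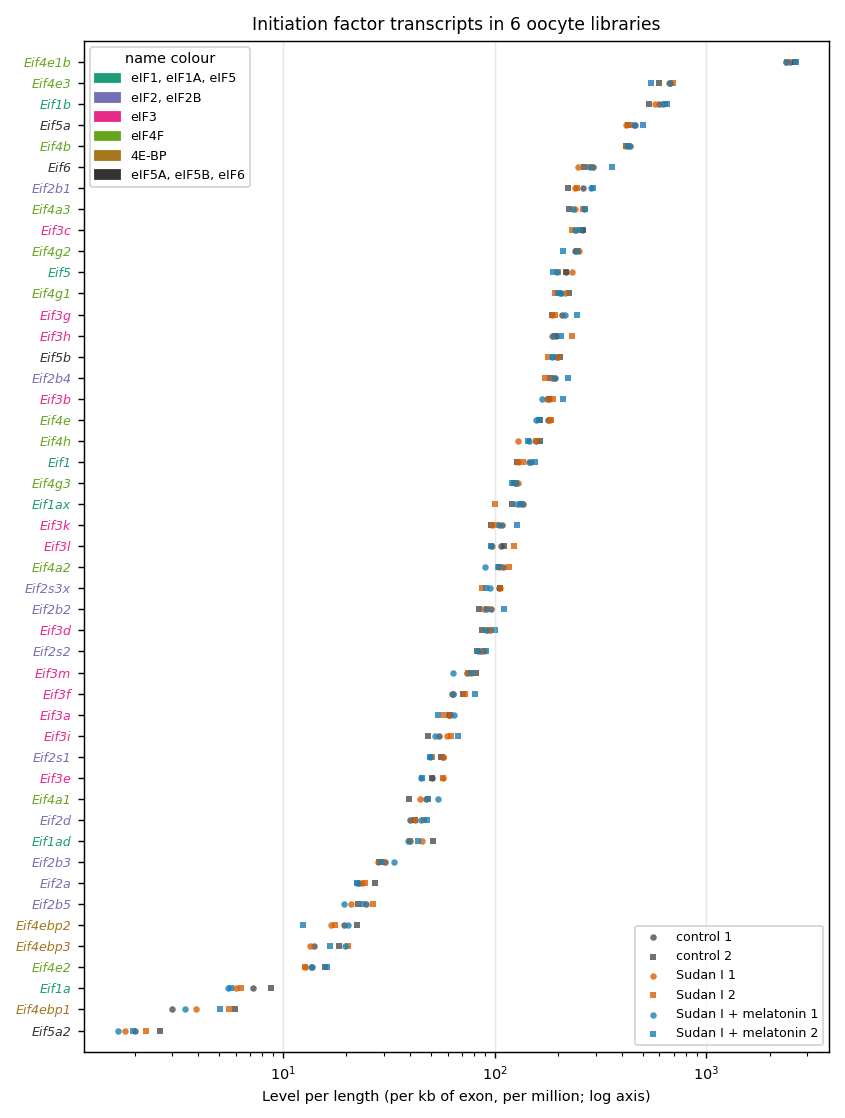
Length-scaled level (per kilobase of exon, scaled to 1000000 per library; log axis) of the 47 detected initiation factor genes, 1 point per library, with gene names coloured by role. Eif4e1b stands apart at 2382 to 2634, and Eif5a2, Eif4ebp1 and Eif1a lie lowest.

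Next in the order came Eif4e3, another eIF4E paralogue, at 640.2 ± 57.6, and Eif1b, a paralogue of the start codon selection factor eIF1, at 603 ± 43.9. Their libraries overlapped. Eif5a followed at 449 ± 30.4 and Eif4b, a cofactor of the eIF4A helicase, at 423 ± 8.24, and these overlapped as well. The places after Eif4e1b depended on the length: with the longest transcript Eif5a came second at 584 ± 39.5, Eif1b next at 515 ± 37.4 and Eif4e3 after it at 503 ± 45.0. At the other end stood Eif5a2, the paralogue of eIF5A, at 2.06 ± 0.347, then Eif4ebp1, an inhibitor of eIF4E, at 4.49 ± 1.21, and Eif1a, the autosomal eIF1A gene, at 6.62 ± 1.24. Of the 46 pairs of neighbours in this order, 38 had overlapping ranges over the 6 libraries, so most adjacent ranks cannot be distinguished. The rank correlation of the order between any pair of libraries was at least 0.982 across the 47 genes, which share libraries and lengths and are not independent.

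Most families were dominated by a particular paralogue. Among the 4 eIF4E genes, Eif4e1b made up 75.0% ± 2.26 of the summed length-scaled level (SD, n = 6), Eif4e3 19.4% ± 2.01, the general cap-binding protein Eif4e 5.19% ± 0.397, and Eif4e2, a cap-binding protein known for repressing translation, 0.428% ± 0.0390, or 0.872% ± 0.0786 with the longest transcript as length. For Eif4e1b the share was 74.1% and 77.3% in the control libraries, 73.4% and 72.9% in the Sudan I libraries and 74.0% and 78.4% in the melatonin libraries. Both Sudan I libraries lay lowest and the other 2 groups overlapped. Eif4e1b exceeded Eif4e by 14.6 ± 1.47 times within a library. The 4 cap-binding genes together exceeded the 3 genes of eIF4E-binding inhibitors, Eif4ebp1, Eif4ebp2 and Eif4ebp3, by 84.2 ± 11.4 times. Eif4e alone exceeded these inhibitors by 4.38 ± 0.733 times. Eif4ebp3 held 42.9% of the inhibitor sum, and 67.3% of its exonic bases are shared with the same-strand gene AC115631.1. Eif4e1b and Eif4e each have 1 near-identical annotated copy. These shares and ratios therefore depend on how shared reads were assigned.

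**Figure D2:**
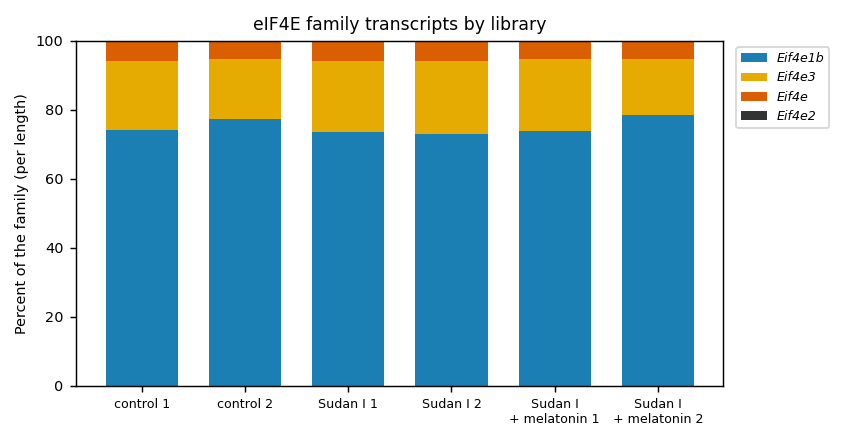
Share of the summed length-scaled level of the 4 eIF4E genes in each library (stacked bars, percent). Eif4e1b takes 72.9% to 78.4% in each library, and Eif4e2, at 0.428% on average, is too thin to see.

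Eif5a exceeded Eif5a2 by 224 ± 40.6 times, or 370.2 ± 67.2 with the longest transcript as length. The X-linked eIF1A gene Eif1ax exceeded Eif1a by 19.4 ± 3.98 times, and Eif1b made up 81.1% ± 0.734 of the eIF1 pair, with Eif1 at 18.9%. With the longest transcript as length the share of Eif1b was 74.6%. Eif1 has 13 near-identical annotated copies and Eif1b has 0, so the shares of this pair depend on how reads of copies were assigned. Of the 3 eIF4G genes none dominated: Eif4g2, a scaffold without an eIF4E site, held 41.9% ± 1.33, Eif4g1 36.2% ± 1.36 and Eif4g3 21.9% ± 0.699. Eif4a3, the helicase of the exon junction complex, held 62.0% ± 1.14 of the eIF4A genes, Eif4a2 26.2% ± 1.83 and Eif4a1 11.8% ± 1.30. The share of Eif4a3 was 56.3% when the longest annotated transcript was used as length. Eif4a1 has an annotated copy identical over 99.9% of 1218 aligned bases, and Eif4a3 has 3 copies, so these shares depend on how reads of copies were assigned. Eif5a, Eif1a and Eif4a2 each have 1 near-identical copy, so their values carry the same limit.

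Subunits of a complex were not at equal RNA levels. In eIF2B, the factor that reloads eIF2 with GTP, the regulatory alpha subunit Eif2b1 held 43.1% ± 1.57 of the summed length-scaled level and the delta subunit Eif2b4 32.2% ± 1.30, but the catalytic epsilon subunit Eif2b5 only 3.89% ± 0.560. Eif2b1 exceeded Eif2b5 by 11.3 ± 1.97 times. Among the 3 detected subunits of eIF2, Eif2s3x held 41.2% ± 1.92, Eif2s2 36.5% ± 2.31 and Eif2s1, the alpha subunit that stress kinases phosphorylate, 22.3% ± 0.646. With the longest transcript as length Eif2s2 led in place of Eif2s3x at 44.3%, so that order is not settled. Among 12 detected eIF3 subunits, Eif3c had the highest share at 17.0% ± 1.04 and Eif3e the lowest at 3.51% ± 0.414, and the highest exceeded the lowest by 4.91 ± 0.615 times. Both ends depended on the length: with the longest transcript Eif3g was highest at 18.1% ± 1.43 and Eif3f lowest at 3.88% ± 0.264. Eif2s1, Eif2s2, Eif2s3x, Eif3e, Eif3h and Eif3m have near-identical annotated copies, so shares in eIF2 and eIF3 also depend on how reads of copies were assigned.

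RefSeq promoter windows of mouse build GRCm38.p6 were matched to 38 of the 50 genes. The letters CACGTG, a palindrome bound by MYC and USF proteins, were found within the 250 bases before an annotated start in 9 of the 38, or 23.7%: Eif1b, Eif3f, Eif3k, Eif4a1, Eif4e, Eif4g1, Eif4h, Eif5a and Eif5a2. Of all 27025 genes with a window, 6.86% held it. This background takes in genes that were not tested here and was not matched for the number of windows per gene. Other motifs, searched on both strands, were GCGGAAG in 6 genes, or 15.8%, against 5.08% of all genes, and TATAAA in 4, or 10.5%, against 14.3%. A match is a description of these letters and no evidence of binding. The 3 windows below are those with CACGTG that touch no annotated exon, read 5′ to 3′ on the gene's strand with CACGTG in capitals. They lie at chr7:108934165-108934414 on the plus strand for Eif3f, chr11:69672424-69672673 on the minus strand for Eif4a1 and chr11:69921387-69921636 on the minus strand for Eif5a.
Eif3f: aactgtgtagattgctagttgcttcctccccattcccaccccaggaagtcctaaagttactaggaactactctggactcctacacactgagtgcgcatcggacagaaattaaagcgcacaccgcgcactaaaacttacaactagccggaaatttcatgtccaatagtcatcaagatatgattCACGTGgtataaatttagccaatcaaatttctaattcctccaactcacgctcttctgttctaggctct
Eif4a1: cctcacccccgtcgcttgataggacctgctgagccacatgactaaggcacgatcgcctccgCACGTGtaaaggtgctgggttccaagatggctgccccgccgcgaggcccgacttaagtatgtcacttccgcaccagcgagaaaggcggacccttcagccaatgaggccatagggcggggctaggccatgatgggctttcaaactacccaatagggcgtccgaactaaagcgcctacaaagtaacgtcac
Eif5a: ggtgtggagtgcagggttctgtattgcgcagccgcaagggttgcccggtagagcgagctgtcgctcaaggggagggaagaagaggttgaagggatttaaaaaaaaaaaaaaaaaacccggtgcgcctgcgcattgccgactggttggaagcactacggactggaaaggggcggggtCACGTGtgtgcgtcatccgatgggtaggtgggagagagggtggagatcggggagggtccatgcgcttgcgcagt
The first capital letter stands 68 bases before the start in Eif3f, 189 in Eif4a1 and 74 in Eif5a. Eif5a has more than 1 annotated start, and its window lies inside the annotated gene, at chr11:69916714-69921958. Other Eif5a windows, which touch exons, also hold CACGTG, the same site among them.

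Exposure to Sudan I was compared with control to ask which of these transcripts the dye changed. No initiation factor passed a Benjamini-Hochberg adjusted p under 0.05 in edgeR's quasi-likelihood test over 14124 genes, where 0.00708% of all genes did, in either direction. Fold changes were small: log2 values ran from -0.36 for Eif1a to 0.27 for Eif3i with a median of -0.02, against -0.0024 over all tested genes. At an unadjusted p under 0.05, 0 of 47 passed, against 3.16% of all genes, and DESeq2 and limma-voom also called 0. The 95% interval of the fold change lay within 1 on the log2 scale of no change for 46 of the 47, against 69.9% of all genes, and within 0.5 for 40 of them, against 40.4%. The exception to the wider bound was Eif4ebp1, with 37 to 87 counts per library, whose interval reached 1.04. Intervals are wider at low counts, and most initiation factors are more abundant than the typical tested gene. The shares over all genes, here and in the comparisons below, were not matched for abundance. The part of abundance in this contrast was not tested.

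The Sudan I libraries were both above the controls in 8 of 47, or 17.0%, against 16.1% of all genes, and both below in 5, or 10.6%, against 15.9%, shares near or under the background. The smallest p belonged to Eif3e, a subunit of eIF3. It gave 87.2 and 86.1 CPM in control, 99.1 and 98.6 in Sudan I and 78.5 and 80.3 in the melatonin libraries. All 3 groups were separate, with Sudan I highest. The log2 fold change against control was 0.19 (SE 0.10; unadjusted p 0.0909, edgeR quasi-likelihood).

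Eif3i, another eIF3 subunit, gave 51.6 and 45.4 CPM in control and 57.4 and 59.4 in Sudan I. Its log2 difference was 0.27 (SE 0.15), or 0.18 without control library 2. Its 2 melatonin libraries, at 50.5 and 65.3 CPM, spanned both groups. Eif1a gave 7.75 and 9.34 CPM in control, 6.49 and 6.81 in Sudan I and 5.98 and 6.24 with melatonin. Every control library lay above every treated library, and the log2 difference for Sudan I was -0.36 (SE 0.23), or -0.22 without control library 2. Eif4h, which like eIF4B stimulates the eIF4A helicase, gave 223 and 229.8 CPM in control and 185 and 223 in Sudan I. Its log2 difference was -0.15 (SE 0.11), and it rested on Sudan I library 1: without that library it was -0.02. Their unadjusted p-values were 0.104, 0.146 and 0.204 in this order.

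**Figure D3:**
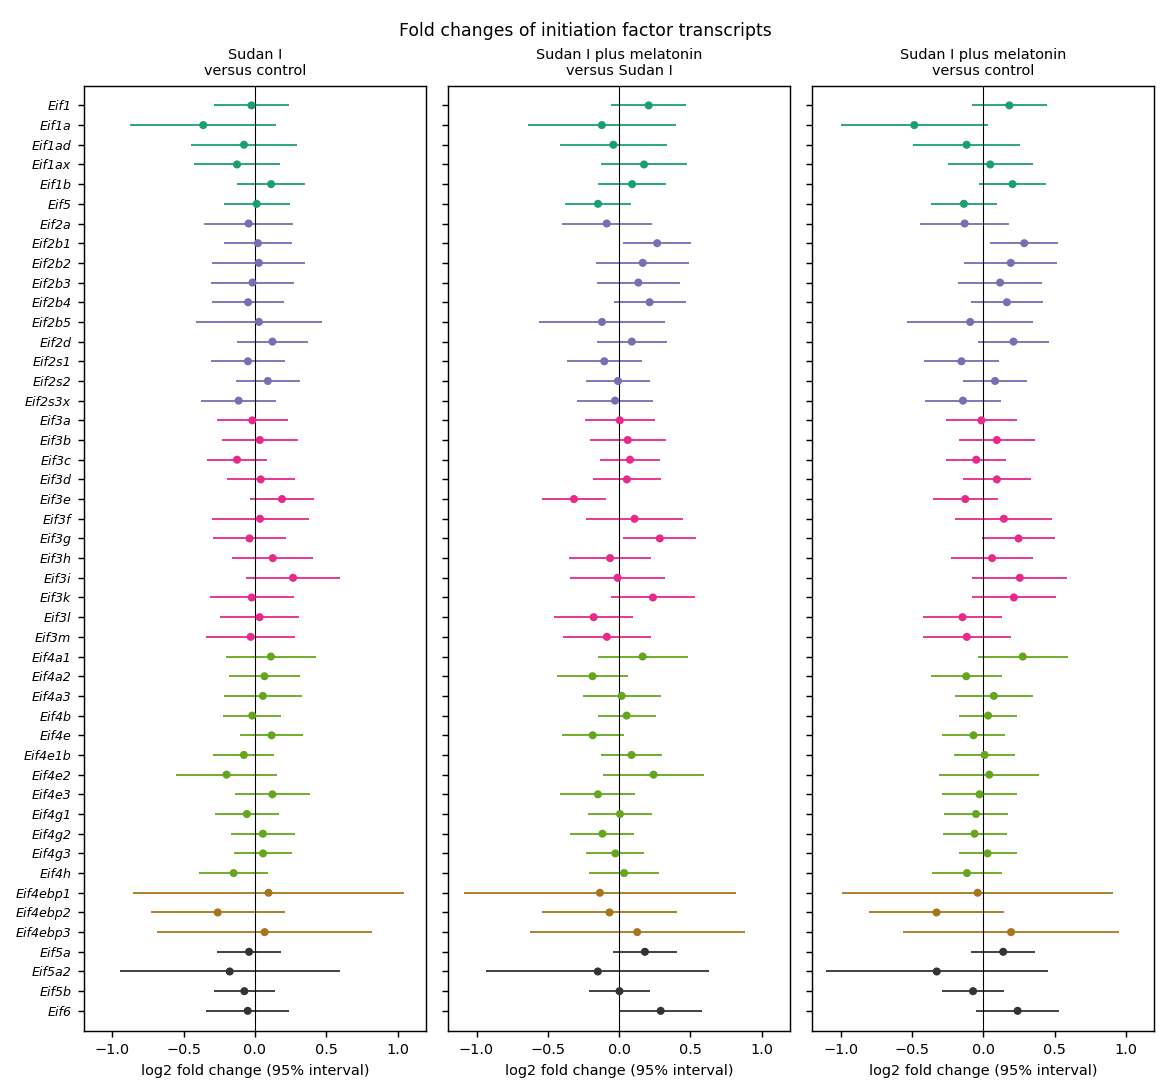
Log2 fold change with its 95% interval from the edgeR fit for the 47 tested genes in the 3 comparisons, coloured by role. Points lie between -0.48 and 0.29, and wide intervals belong to the low-count genes Eif4ebp1, Eif4ebp3 and Eif5a2.

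Melatonin given with Sudan I was compared with Sudan I alone to ask whether the rescue moved these transcripts. Again 0 of 47 passed the adjusted threshold in edgeR, DESeq2 or limma-voom, and 0% of all genes did in edgeR. The median log2 difference was 0.01, with a range from -0.32 for Eif3e to 0.29 for Eif6. An unadjusted p under 0.05 was found for 3 genes, or 6.38%, against 3.83% of all genes: Eif2b1 and Eif3g higher, Eif3e lower. The interval lay within 1 of no change for 46 of 47, Eif4ebp1 again being the exception, against 70.1% of all genes. It lay within 0.5 for 35, against 38.2%, again without matching for abundance.

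The melatonin libraries were both higher in 13 of 47, or 27.7%, against 14.8% of all genes, and both lower in 7, or 14.9%, against 15.9%. The 13 were Eif1, Eif2b1, Eif2b3, Eif2b4, Eif3c, Eif3g, Eif3k, Eif4a1, Eif4b, Eif4e1b, Eif4e2, Eif5a and Eif6. The 7 were Eif1a, Eif2a, Eif2s1, Eif3e, Eif4a2, Eif4e and Eif5.

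Eif3e, at the values above, was lower with melatonin than with Sudan I alone, by a log2 difference of -0.32 (SE 0.10; unadjusted p 0.0109, adjusted p 0.994, edgeR). It was lower in 2 of 2 libraries, and alternatives that left out a library or changed the scaling or tool gave -0.33 to -0.29. Eif2b1 gave 172 and 146 CPM in control, 160.4 and 162 in Sudan I and 190.4 and 198 with melatonin. Both melatonin libraries were the highest, and the log2 difference from Sudan I was 0.27 (SE 0.11; unadjusted p 0.0320). Eif3g, an eIF3 subunit that binds RNA, gave 106 and 93.9 CPM in control and 96.0 and 98.4 in Sudan I. With melatonin it gave 110.3 and 126 CPM, a log2 difference from Sudan I of 0.29 (SE 0.11, unadjusted p 0.0317, edgeR). Melatonin library 2 was its highest, and without it the difference was 0.18.

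Eif6, which keeps the large ribosomal subunit from joining too early, gave 202 and 182 CPM in control, 173 and 197 in Sudan I and 199 and 254 with melatonin. Melatonin library 2 again stood above all others, while melatonin library 1 lay between the controls. The log2 difference from Sudan I of 0.29 (SE 0.13) was 0.10 without melatonin library 2. That library also held the most Inha, Fst and Inhba RNA but the least Kitl and Nr5a2 RNA, as given above. The part of granulosa RNA in the values of Eif6, Eif3g and Eif5a was not tested. Eif4e gave 276 and 249 CPM in control, 283 and 286 in Sudan I and 244 and 256 with melatonin, a log2 difference of -0.19 between the treated groups (SE 0.10; unadjusted p 0.0882). The Sudan I libraries were its 2 highest. For Eif4e1b the CPM were 1431 and 1502 in control, 1389 and 1391 in Sudan I and 1399 and 1553 with melatonin, and the log2 difference between the treated groups was 0.09 (95% interval -0.13 to 0.30).

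**Figure D4:**
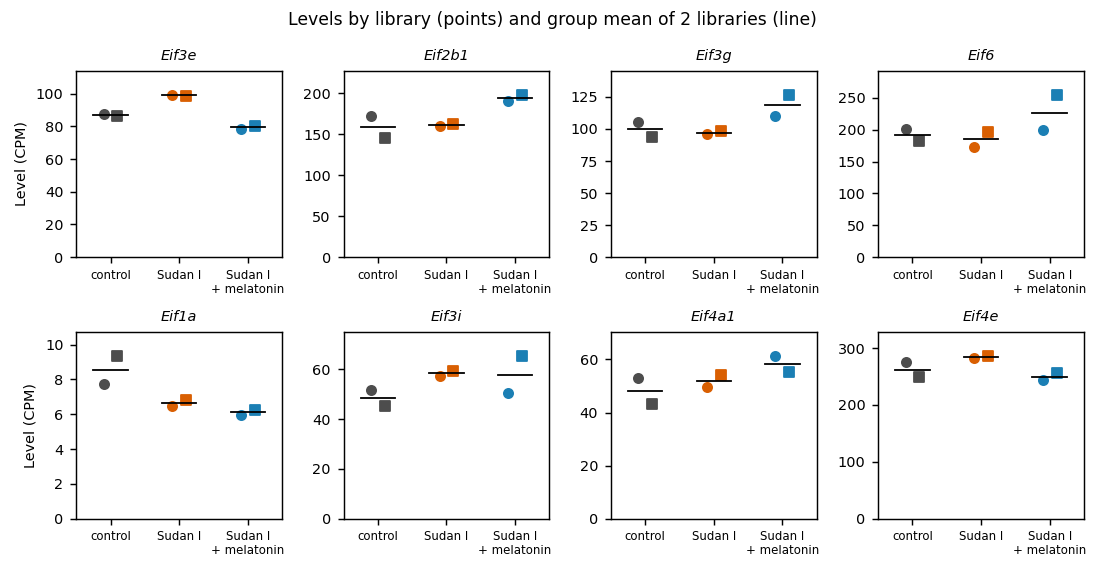
CPM in each library (points) and group mean of 2 libraries (line) for 8 genes, with axes starting at 0. For Eif3e both Sudan I libraries are the highest, at 99.1 and 98.6 CPM, and for Eif2b1 both melatonin libraries are, at 190.4 and 198 CPM.

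Melatonin with Sudan I was also compared with control, to ask how far the rescue group stood from untreated oocytes; this comparison shares libraries with the other two and is not independent of them. In edgeR 0 of 47 passed the adjusted threshold, against 0.00708% of all genes, and DESeq2 and limma-voom called 0. The median log2 difference was 0.03, from -0.48 for Eif1a to 0.29 for Eif2b1. Only Eif2b1 had an unadjusted p under 0.05, or 2.13% of 47, against 4.6% of all genes. Its log2 difference was 0.29 (SE 0.11; unadjusted p 0.0229, adjusted p 0.956, edgeR), ranging over the alternatives from 0.17 without control library 2 to 0.42 without control library 1. The interval lay within 1 of no change for 46 of 47, with Eif5a2 reaching -1.10, against 68.9% of all genes. It lay within 0.5 for 34, against 37.6%, again without matching for abundance.

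The melatonin libraries were both above the controls in 8 of 47 genes, or 17.0%, against 16.5% of all genes, and both below in 11, or 23.4%, against 17% of all. For Eif1a the log2 difference was -0.48 (SE 0.23; unadjusted p 0.0628). Eif4a1, the general eIF4A helicase, gave 52.9 and 43.3 CPM in control, 49.7 and 54.1 in Sudan I and 61.2 and 55.2 with melatonin. The melatonin libraries were its 2 highest, and the log2 difference from control was 0.28 (SE 0.14; unadjusted p 0.0796), which was 0.14 without control library 2 and was 0.43 without control library 1. Eif3g differed from control by 0.25 (SE 0.11; unadjusted p 0.0558), or by 0.15 without melatonin library 2 and 0.16 without control library 2.

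By role, fold changes fell on both sides of 0; over all tested genes 49.4% lay above 0 in Sudan I versus control, 48.8% in melatonin versus Sudan I and 48.9% in melatonin versus control, with medians of -0.0024, -0.0060 and -0.0051. Of 6 genes for eIF1, eIF1A and eIF5, 2 lay above 0 in Sudan I versus control and 3 in each melatonin comparison, with medians of -0.05, 0.03 and -0.03. Eif1 gave 78.4 and 67.9 CPM in control, 70.3 and 73.5 in Sudan I and 81.0 and 85.0 with melatonin, with the melatonin libraries highest. Eif1ax gave 183 and 162, 179.9 and 136, and 174 and 183 CPM in the same order, and the 3 groups overlapped. Eif5, the factor that makes eIF2 hydrolyse its GTP, gave 378 in both control libraries, 411 and 351 in Sudan I and 351 and 337 with melatonin. The melatonin libraries of Eif5 were its 2 lowest, by a log2 difference of -0.14 from control (SE 0.10).

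Of 10 tested genes for eIF2, its alternatives eIF2A and eIF2D and its exchange factor eIF2B, 5 lay above 0 with Sudan I against control, 5 with melatonin against Sudan I and 6 with melatonin against control, with medians of 0.0018, 0.04 and 0.10. Eif2s1 gave 72.3 and 70.0 CPM in control, 72.9 and 64.6 in Sudan I and 63.5 and 64.4 with melatonin. The melatonin libraries were lowest, with a log2 difference from control of -0.15 (SE 0.12). Eif2s2, the beta subunit, gave 149.5 and 141 in control, 155 and 154 in Sudan I and 147 and 161 with melatonin, and its log2 differences were at most 0.09. Eif2s3x, the X-linked gamma subunit, gave 102 and 103 in control, 104 and 85.3 in Sudan I and 94.6 and 91.3 with melatonin. Both melatonin libraries lay below both controls, while Sudan I library 2 was lowest of all. Eif2b5 ranged from 13.1 to 17.9 CPM with all groups overlapping, and the SE of its log2 differences was 0.20. Eif2d, at 75.8 and 78.8 in control, lay below all 4 treated libraries, which ranged from 80.1 to 92.8 CPM, with an unadjusted p of 0.295 for Sudan I and 0.0851 for melatonin against control.

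Of 12 tested eIF3 genes 7 lay above 0 in each comparison, with medians of 0.03, 0.03 and 0.08 on the log2 scale for Sudan I versus control, melatonin versus Sudan I and melatonin versus control. Eif3a, the largest scaffold subunit, ranged from 124 to 146 CPM, both extremes in the melatonin group. Eif3b, another scaffold subunit, ranged from 146 to 183 CPM, again with both extremes in the melatonin group. Eif3c gave 233 in both control libraries, 219 and 208 in Sudan I and 219 and 232 with melatonin. The controls were its 2 highest libraries, and the log2 difference for Sudan I was -0.13 (SE 0.09). The remaining subunits, Eif3d, Eif3f, Eif3h, Eif3k, Eif3l and Eif3m, had log2 differences between -0.18 and 0.24. Of these, the counts of Eif3d may include those of the antisense gene Gm17638, which covers 43.3% of its exonic bases.

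Of 12 genes for cap binding, helicase and scaffold, 7 lay above 0 with Sudan I against control, 7 with melatonin against Sudan I and 6 with melatonin against control, with medians of 0.06, 0.01 and -0.01. Eif4g1 gave 382 and 416 CPM in control, 406 and 362 in Sudan I and 392 and 379 with melatonin, and the groups overlapped. Eif4g2 ranged from 559 in melatonin library 2 to 661 in Sudan I library 1. Eif4g3 had the smallest spread of all, 347 to 368 CPM over 6 libraries, a coefficient of variation of 2.28%, and Eif4b was next at 2.46%. Eif4a2 gave 149.6 and 143 in control, 145 and 161 in Sudan I and 125 and 144 with melatonin, and Eif4a3 120.4 to 149 CPM over the 6. Eif4e3 gave 432 and 379 in control, 434 and 449 in Sudan I and 438 and 358 with melatonin. Both Sudan I libraries of Eif4e3 stood above both controls, but melatonin library 1 lay among them. Eif4e2 gave 26.4 and 30.3 in control, 24.8 and 24.6 in Sudan I and 26.6 and 31.8 with melatonin, so the Sudan I libraries were its 2 lowest, with a log2 difference from control of -0.20 (SE 0.16; unadjusted p 0.236), or -0.10 without control library 2.

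The 3 eIF4E-binding inhibitors were low and variable, with median log2 differences of 0.07, -0.07 and -0.04 in the same order of comparisons. Eif4ebp1 gave 1.69 and 3.32 CPM in control, 2.22 and 3.16 in Sudan I and 1.98 and 2.90 with melatonin, the widest spread of the 47 with a coefficient of variation of 26.4%. Eif4ebp2 gave 28.9 and 33.1 in control, 25.4 and 26.4 in Sudan I and 30.6 and 18.9 with melatonin. The Sudan I libraries of Eif4ebp2 lay below the controls, with a log2 difference of -0.26 (SE 0.21), or -0.16 without control library 2, and the melatonin libraries stood on either side. Eif4ebp3 ranged from 2.60 to 3.88 CPM, and 67.3% of its exonic bases are shared with the same-strand gene AC115631.1. At this depth the 95% interval for Eif4ebp1 ran from -0.85 to 1.04 for Sudan I versus control, so smaller differences were not detectable.

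Of the 4 genes for subunit joining, eIF5A and eIF6, 0 lay above 0 in Sudan I versus control, 3 in melatonin versus Sudan I and 2 in melatonin versus control, with medians of -0.06, 0.09 and 0.03. Eif5b, the GTPase that joins the subunits, gave 495 and 504 CPM in control, 501 and 448 in Sudan I and 471 and 480.0 with melatonin. Both melatonin libraries of Eif5b lay below both controls, with a log2 difference of -0.07 (SE 0.10). Eif5a, the hypusine-bearing factor that also acts in elongation, gave 280.0 and 258 in control, 256 and 267 in Sudan I and 280.4 and 312 with melatonin. Melatonin library 2 was its highest, and the log2 difference from Sudan I was 0.18 (SE 0.10), or 0.10 without it. Eif5a2 ranged from 2.17 to 3.35 CPM, with 44 to 88 counts per library.

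The position of a gene in the melatonin comparisons varied with the length of its longest annotated transcript. The 47 genes were divided at their median of 2726 bases, into 23 shorter and 24 longer. Against control, the median log2 difference with melatonin was 0.14 for the shorter and -0.06 for the longer genes, against 0.06 for 5203 shorter and -0.03 for 8801 longer genes of the whole table. Across the 47 genes the Spearman correlation of length with log2 difference was -0.51 for melatonin versus control, -0.40 for melatonin versus Sudan I and -0.20 for Sudan I versus control. In melatonin library 2 the median deviation from the mean of 6 libraries was 0.14 for the shorter and -0.03 for the longer genes, against 0.11 and -0.04 for all genes. Without that library the medians against Sudan I were -0.01 and -0.00052 and the correlation -0.09, and against control 0.04 and -0.08 with a correlation of -0.25. Without Sudan I library 1 the correlation for melatonin versus Sudan I was -0.12, with medians of 0.025 and 0.0091. For Sudan I versus control the correlation was 0.32 without Sudan I library 2 and 0.03 without control library 2, so its sign changed with the library left out. Of the 13 genes whose melatonin libraries were both above Sudan I, Eif1, Eif2b1, Eif2b4, Eif3g, Eif3k, Eif4e1b, Eif5a and Eif6 are among the shorter. The part of transcript length in the differences was not tested.

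**Figure D5:**
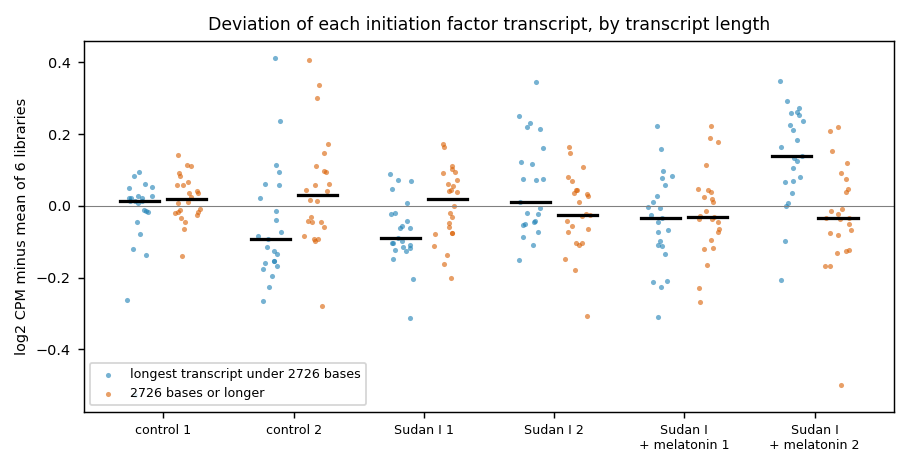
Deviation of each gene in each library from its mean over 6 libraries (log2 CPM), split at 2726 bases of transcript length; black lines are medians. The shorter genes stand above the longer ones in melatonin library 2, with medians of 0.14 and -0.03, and below them in control library 2 and Sudan I library 1.

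The 9 genes with CACGTG in the promoter window had a median log2 difference of 0.09 with melatonin against Sudan I, 7 of them above 0, and 27 tested genes whose window lacks it had a median of 0.0048, 15 of them above 0. Against control the medians were 0.14 and 0.03 with melatonin and -0.02 and -0.02 with Sudan I. Eif4a1 and Eif5a, shown above, were among the genes whose melatonin libraries were both above Sudan I and both above control, and Eif3f was in neither set. The split was not repeated with a library left out or over all genes. Eif1b, whose value was the median of 0.09, ranged from 0.025 to 0.16 over the alternatives. The part of CACGTG in the differences was not tested.

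Genes that act on these factors were read from 5 further lists of 54 genes, of which 53 were tested. None passed the adjusted threshold in edgeR in any comparison. Over all tested genes 49.4%, 48.8% and 48.9% of fold changes lay above 0, in the order of comparisons used above. Genes of a list share libraries and are not independent, so list counts do not measure a joint change. For the kinases and phosphatase of eIF2 alpha and their targets, 7 of 9 lay above 0 in Sudan I versus control, 3 in melatonin versus Sudan I and 7 in melatonin versus control, with medians of 0.06, -0.02 and 0.09. Ppp1r15a, a stress-induced subunit of the eIF2 alpha phosphatase, gave 93.9 and 85.7 CPM in control, 101.5 and 84.6 in Sudan I and 108 and 113 with melatonin. Its melatonin libraries were the 2 highest, with a log2 difference from control of 0.30 (SE 0.12; unadjusted p 0.0328). The kinase Eif2ak4 gave 103 in both controls and 108.5 to 119.9 in the 4 treated libraries, log2 0.17 for Sudan I (SE 0.10; unadjusted p 0.130), and Ddit3, a transcription factor of the stress response, stood at 30.8 CPM in melatonin library 2 and 21.4 to 23.1 elsewhere.

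Among 15 cap and poly(A) binding partners, 13 lay below 0 in Sudan I versus control, 4 in melatonin versus Sudan I and 10 in melatonin versus control, with medians of -0.05, 0.02 and -0.01. Ddx6, a helicase of repressed mRNA particles, gave 110.1 and 154 CPM in control, 88.7 and 95.8 in Sudan I and 102 and 79.0 with melatonin. Every treated library lay below every control, control library 2 was far the highest, and the log2 difference for Sudan I was -0.52 (SE 0.17; unadjusted p 0.0114, edgeR). Pabpc1, the general poly(A)-binding protein, gave 86.4 and 113 in control, 72.3 and 85.3 in Sudan I and 70.6 and 73.2 with melatonin. Its treated libraries were likewise all below control, and control library 2 was again the highest. The log2 difference for melatonin versus control was -0.47 (SE 0.14, unadjusted p 0.00847, adjusted p 0.956, edgeR). Cyfip1, which binds eIF4E, gave 60.2 to 73.3 CPM with no log2 difference beyond -0.17.

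Of 11 genes of mTOR and MNK signalling to eIF4E, 4, 3 and 3 lay above 0 in the 3 comparisons, with medians of -0.08, -0.04 and -0.12, and none had an unadjusted p under 0.05. Tsc1, an inhibitor of mTOR, gave 152 and 181 CPM in control, 154 and 147 in Sudan I and 150.5 and 129.8 with melatonin. Melatonin library 2 was lowest, and against control melatonin gave a log2 difference of -0.25 (SE 0.12; unadjusted p 0.0636). Akt1 differed by 0.23 (SE 0.13) and Rptor, the mTOR partner raptor, by -0.32 (SE 0.24) in the same comparison. Of 8 accessory and recycling factors, 1, 5 and 2 lay above 0, with medians of -0.14, 0.06 and -0.14. Mcts1, a partner in reinitiation, stood at 1.48 to 3.83 CPM and differed by -0.75 (SE 0.41) with Sudan I, Abce1, the ribosome recycling ATPase, by -0.14 (SE 0.18) and the helicase Dhx29 by -0.15 (SE 0.11). Of 10 tested elongation and release factors, 4, 6 and 7 lay above 0, with medians of -0.01, 0.13 and 0.04. Eef1d, Gspt2 and Etf1 differed by 0.25, 0.24 and -0.19 between melatonin and Sudan I, with an SE of 0.11 to 0.13.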

How the data were processed

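Counts per gene symbol were deposited by the authors as raw read counts in 1 table with 24369 rows and 6 library columns. The labels' protocols state only standard Illumina libraries from total RNA; the sources used here do not give the aligner, the counting program, its handling of strand or the genome build. Symbols were matched to GENCODE M21 (GRCm38), 23203 directly and 762 as synonyms, leaving 404, and this build may differ from the authors'. Depth was 20669373 to 26065453 counts per library, and intervals and limits cover the fitted spread or counting error only.

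Genes were kept by filterByExpr (minimum count 10), scaled by TMM and tested in edgeR 4.0.16 (R 4.3.3) with the quasi-likelihood F test, all 6 libraries in 1 fit with 3 residual degrees of freedom and a common biological coefficient of variation of 0.167. Benjamini-Hochberg adjustment ran over all 14124 tested genes, with a threshold of 0.05. CPM use TMM-scaled library sizes. Length-scaled levels are counts per kilobase of merged exons, scaled to 1000000 per library; genes without a length held 0.475% of counts. The smallest two-sided p of an exact permutation test with 2 libraries against 2 is 0.333; no such test was run. The fit was also run on simulated data with known changes. The outcome is not given here and is not used as support. Near copies were found with BLASTN 2.17.0. Alternatives were other scalings, no filter, DESeq2 1.42.0, limma-voom (limma 3.58.1), the compared libraries alone, a replicate block, each library left out and the longest transcript as length.

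The genes and lists were chosen with earlier results of these data known. Genes described with values were 27 set by name, in each comparison the 4 with the smallest unadjusted p, the 3 highest and 3 lowest by level, and up to 3 per list of other pathway genes; Eif2d, Eif3c, Eif4b, Eif2b4 and Eif1b were added after their values were seen. The split by transcript length, its values without each library and the split by CACGTG were also added after seeing the data. Lists were described by counts and medians, with no set test.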

Additional observations from a re-analysis of the deposited data

How the results depend on the processing

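The count of initiation factors past the adjusted threshold was 0 in all 3 comparisons under each of the 13 alternatives run. Over all genes, the count called in Sudan I versus control, melatonin versus Sudan I and melatonin versus control was 1, 0 and 1 in edgeR, 12, 6 and 12 in DESeq2, and 88, 67 and 93 in edgeR without the filter on low counts. When each library was left out in turn, the median log2 fold change of the tested members ranged from -0.03 to 0.02 for Sudan I versus control, from -0.0009 to 0.05 for melatonin versus Sudan I and from -0.020 to 0.057 for Sudan I plus melatonin versus control. The lowest value of the last, -0.020, came without melatonin library 2, against 0.03 with it; the cause was not tested. Without melatonin library 1, the melatonin group rests on a lone library assumed to vary like the others. The median for initiation factors was then 0.053 against Sudan I and 0.057 against control. With all libraries these medians were 0.0060 and 0.030. The direction of 141 fold changes turned in 0 under other scalings, no filter, DESeq2 and the compared libraries alone, in 2 under limma-voom, and in 10 to 26 when a library was left out.

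With the replicate number as a block, 0 initiation factors passed in each comparison and the medians were -0.02, 0.01 and 0.03. Deviations of same-numbered libraries correlated at 0.05, -0.06 and 0.07 over 14124 genes and at -0.03, 0.17 and 0.06 over the more abundant genes. Over the 47 initiation factors the correlations were 0.32, 0.20 and 0.09. The labels give no pairing, so the libraries were taken to share only a number. The deposited column names carry a further code, whose number differs from the replicate number within the control and Sudan I groups. Neither the block nor these correlations can therefore decide whether libraries were paired. The order of levels with the longest transcript as length had a rank correlation of 0.980 with the order reported, below the lowest between libraries, 0.982. For Eif4ebp1 and Eif5a2, under 100 counts per library limit what can be seen.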
